A study of Mus musculus with 12 samples.

Results

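The 9 genes Clec4d, Clec4e, Clec4n, Clec7a, Clec5a, Clec12a, Clec4a1, Clec4a2 and Clec4a3 encode C-type lectin receptors of myeloid cells. They were taken by gene symbol from the expression tables, and all 9 were found, each as a single row, among 23361 gene symbols. All 9 passed the expression filter, which kept a row with an FPKM (fragments counted per length of transcript and per depth of the sample) of at least 1 in at least 1 sample, and 8 of the 9 were at or above 1 FPKM in every sample. Poly-A selected RNA was sequenced from bone marrow-derived macrophages (BMDMs) of wild-type mice aged 8 to 12 weeks, on the C57BL/6 background. The bone marrow cells of every group had been differentiated for 6 days with L929 supernatant, a source of MCSF. The control group received no further stimulus, the IL-4 group received IL-4 at 20 ng/ml for 24 h, the LPS group received LPS at 100 ng/ml for 3 h, and the IL-4+LPS group received the IL-4 pretreatment and then LPS. Each of the 4 groups held 3 samples, and the comparisons ask how IL-4, the cytokine of alternative macrophage polarization, changes the receptor genes at rest and during the response to LPS, a bacterial cell wall component.

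C-type lectin receptors bind sugars and lipids of fungi, mycobacteria and dying cells. Mincle (Clec4e), MCL (Clec4d) and Dectin-2 (Clec4n) carry no signalling motif of their own and pair with the adaptor FcRγ (Fcer1g), MDL-1 (Clec5a) pairs with the adaptor DAP12 (Tyrobp), and Dectin-1 (Clec7a) signals through a motif in its own tail. These routes meet at the kinase Syk and the scaffold Card9. MICL (Clec12a) and DCIR (Clec4a2) carry inhibitory motifs that recruit phosphatases, and Clec4a1 and Clec4a3 encode relatives of DCIR.

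The label of the cells was checked against marker genes. All 7 macrophage markers found in the tables, among them Csf1r, Cd68 and Emr1 (F4/80), were above 1 FPKM, with summed levels of 19953 to 21253 FPKM in control, 8214 to 8440 after IL-4, 15986 to 17179 after LPS and 6920 to 7330 after both. Lyz2 made up most of each sum (16116 FPKM on average in control and 4873 after IL-4), and the other 6 summed to 4609 to 4758, 3317 to 3606, 3516 to 3744 and 2714 to 2824 FPKM in the same order. Single markers differed: Cd68 was at 1124 ± 117 FPKM after LPS and 1168 ± 81.9 after both, and Mertk at 9.90 ± 1.19 and 18.1 ± 4.23. The B cell, T and NK cell and fibroblast markers (10 genes) stayed under 1 FPKM in every sample. Neutrophil and neutrophil precursor markers were present, and all 6 that were found reached 1 FPKM. Their summed level was 364 to 946 FPKM in control, 231 to 439 after IL-4, 556 to 1145 after LPS and 459 to 926 after both. The 2 monocyte markers summed to 14.2 to 18.5 FPKM in control and 6.11 to 8.55 after IL-4, and of the 3 mast cell and basophil markers Cpa3 and Ms4a2 stayed under 1 FPKM. Of the 6 dendritic cell markers, Flt3, Siglech and Xcr1 stayed under 1 FPKM and Ccr7 reached at most 1.39. Zbtb46, a transcription factor of dendritic cells, was at 0.0802 ± 0.0711 FPKM in control, 0.369 ± 0.176 with IL-4, 0.518 ± 0.0389 with LPS and 2.42 ± 0.451 with both. Itgax (CD11c), which macrophages also express, was at 32.1 ± 9.53 FPKM in control, 317 ± 24.8 after IL-4, 25.1 ± 7.29 after LPS and 323 ± 35.5 after both (mean ± SD, n = 3). The part of these markers in the results below was not tested, and in bulk samples fewer cells of a type and less RNA per cell cannot be told apart. Relative depth spanned 0.992 to 3.31 with control replicate 1 set to 1. The 4 samples numbered replicate 1 also stood apart in correlation. Across expressed genes, which are not independent replicates, their Pearson r with the other samples of their group was 0.954 to 0.962. Between replicates 2 and 3 it was 0.973 to 0.983. The part of the lower depth of replicate 1 in this was not tested. Values from replicates 2 and 3 alone are given where a call changed or rested on a sample numbered 1. Those fits hold 2 samples per group. They leave out the samples that stood apart, which narrows the spread, so their smaller p-values are not added support for a call. The study describes 2 experiments for these animals, and the sources used here do not say which samples belong to which.

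All 9 genes lie on chromosome 6 (mm10). A run of 6 neighbours, in the order Clec4a1, Clec4a3, Clec4a2, Clec4n, Clec4d and Clec4e, occupy 368024 bases between positions 122921848 and 123289871. Clec12a and Clec7a flank a second stretch of 122534 bases (129350244 to 129472777), and Clec5a lies alone at 40574898 to 40585805. Clec4e, Clec7a and Clec5a are on the minus strand and the other 6 on the plus strand.

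After IL-4 alone, 5 of the 9 genes were lower than in control (Clec4n, Clec12a, Clec4e, Clec4d and Clec4a1) and 3 were higher (Clec7a, Clec4a3 and Clec4a2). Of all 11191 rows tested with limma, 21.0% were lower and 16.0% were higher at a Benjamini-Hochberg adjusted p under 0.05. In cells exposed to LPS, IL-4 pretreatment left 6 genes lower (the same 5 and Clec4a2) and 2 higher (Clec7a and Clec4a3) than LPS alone, against 15.8% and 15.0% of all rows. The summed macrophage markers, with or without Lyz2, were lower with IL-4 than without it at rest and with LPS, and Zbtb46 and Itgax were higher. The summed ranges of the neutrophil markers overlapped. Of these markers only Ngp did not overlap at rest (50.4 to 107 FPKM in control and 18.3 to 42.7 after IL-4). The summed monocyte markers were lower with IL-4 at rest, and their ranges overlapped with LPS. The part of these markers in the counts was not tested. LPS alone raised 4 genes (Clec4e, Clec5a, Clec4d and Clec4a1) and lowered 3 (Clec7a, Clec4a3 and Clec4a2, of which Clec4a3 alone kept its call under median scaling), against 16.9% and 57.7% of all rows. LPS after IL-4 raised 3 genes (Clec4e, Clec5a and Clec4d), against 15.0% of all rows, and lowered 3 (Clec4a3, Clec4a2 and Clec4a1), against 57.9%, of which Clec4a1 reversed its sign under median scaling. Taken as a list, the 9 genes had a median log2 difference of -0.59 for IL-4 against control and -0.75 for IL-4+LPS against LPS, where the medians of all rows were -0.05 and -0.03. The 2 LPS comparisons have a shifted centre. The median row was at -0.44 for LPS against control and -0.41 for IL-4+LPS against IL-4, and median scaling over samples moved these medians by 0.30 and 0.28, so the LPS differences of the members are also given relative to the median row. In addition, 7 of the 9 genes differed between IL-4+LPS and control in either direction (74.3% of all rows) and all 9 between LPS and IL-4 (73.7%). These comparisons are not independent, since each of the 4 groups serves 3 of them.

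**Figure D1:**
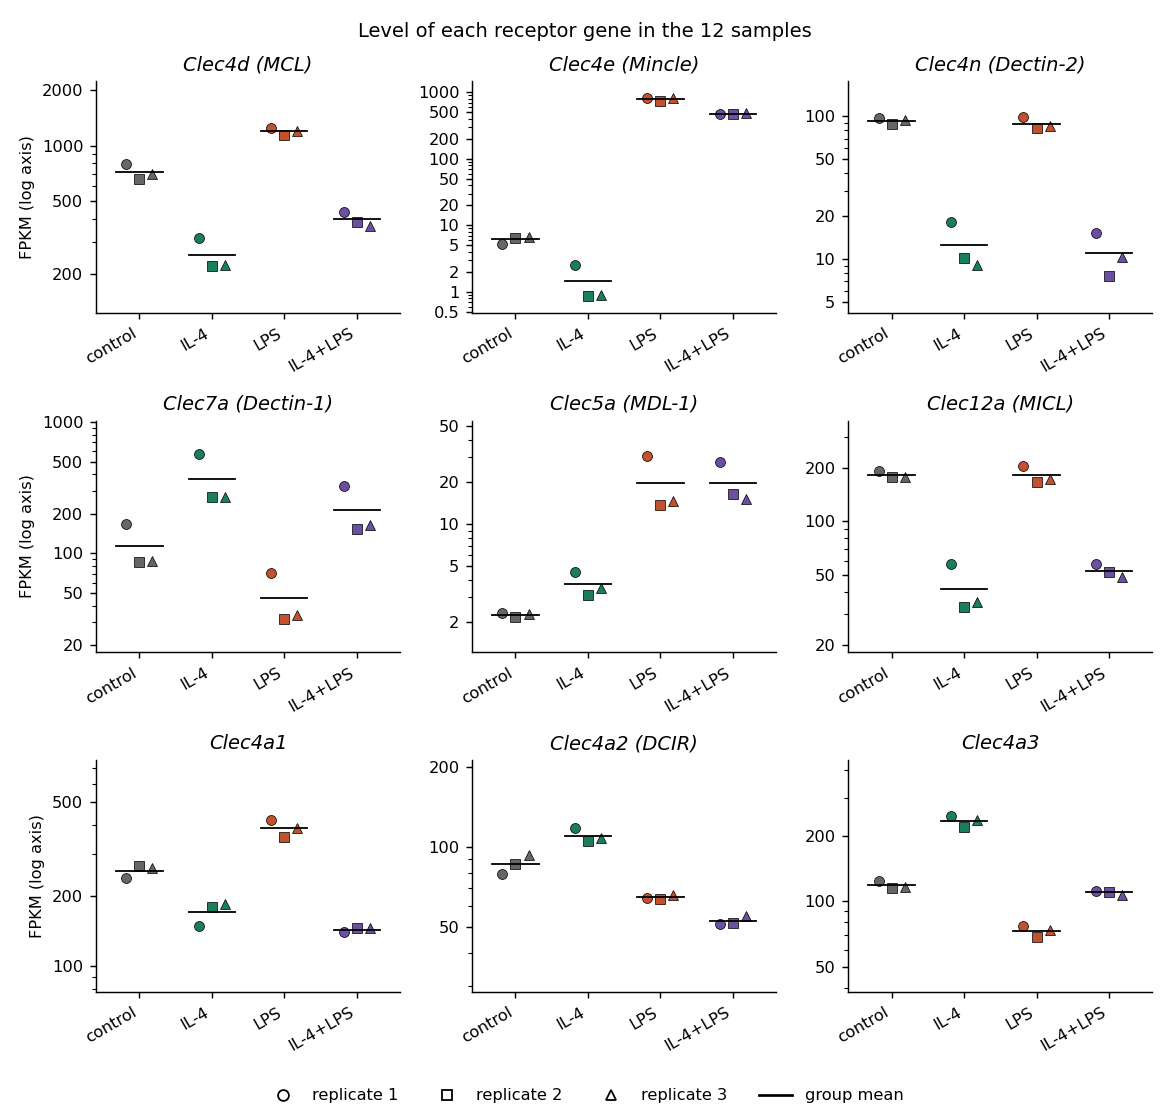
FPKM (log axis, with its own range in each panel) of each receptor gene in the 12 samples, by group, with circles, squares and triangles for replicates 1, 2 and 3 and a bar for the group mean. Clec4n and Clec12a were low in both groups that received IL-4, Clec4e was high in both groups that received LPS, and replicate 1 was the highest sample of every group for Clec7a.

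**Figure D2:**
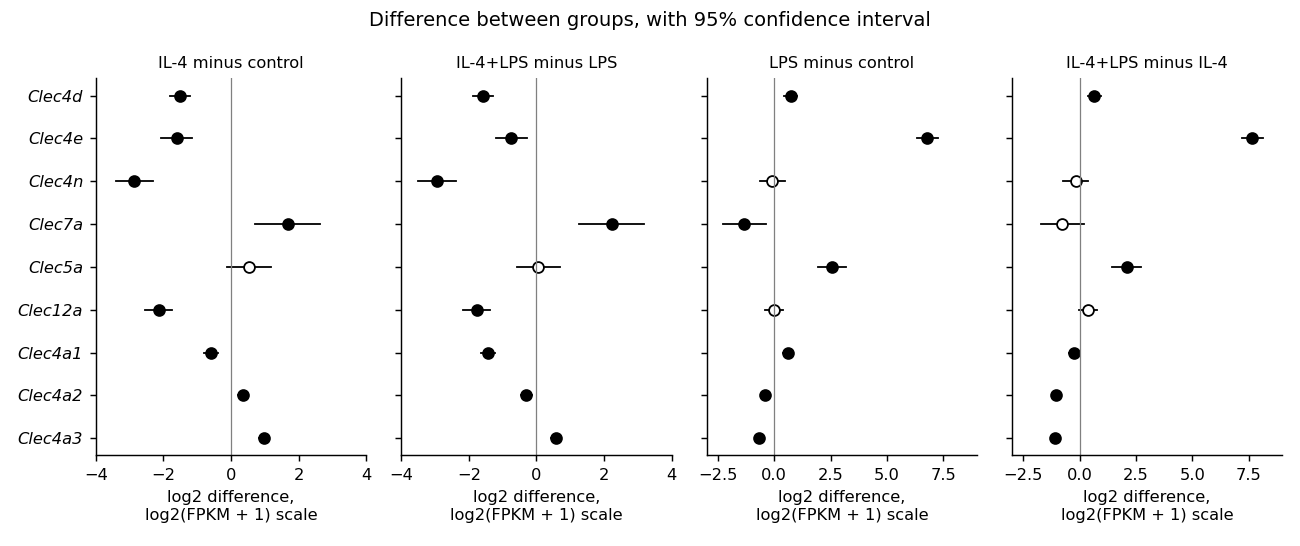
Log2 difference on the log2(FPKM + 1) scale with its 95% confidence interval for the 9 genes in 4 comparisons, filled where the adjusted p was under 0.05. The 2 panels on the left show IL-4 without and with LPS and share 1 axis range, as do the 2 panels on the right, which show LPS without and with IL-4. The interval of Clec4a1 in the last panel lies near 0, and its sign changed under median scaling.

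Clec4d encodes MCL, which binds mycobacterial glycolipid and assembles with Mincle. It was the most abundant of the 9 transcripts in control and LPS. It was at 798, 657 and 700.0 FPKM in control replicates 1 to 3, 314, 222 and 224 after IL-4, 1245, 1139 and 1202 after LPS and 437, 385 and 367 after both. No 2 of the 4 groups overlapped. IL-4 lowered the group mean 2.84-fold without LPS and 3.01-fold with LPS, with log2 differences of -1.52 ± 0.13 (SE, adjusted p = 1.34e-05) and -1.59 ± 0.13 (adjusted p = 1.02e-05). LPS raised Clec4d by 0.74 ± 0.13 without IL-4 (adjusted p = 0.000476) and by 0.66 ± 0.13 after IL-4 (adjusted p = 0.0011), which is 1.18 and 1.07 above the median row. The order of the levels was therefore LPS, control, IL-4+LPS and IL-4, with every step past the threshold.

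Clec4e encodes Mincle, the receptor for mycobacterial trehalose dimycolate. It was at 5.28, 6.53 and 6.63 FPKM in control replicates 1 to 3, 2.57, 0.869 and 0.887 after IL-4, 811, 744 and 819 after LPS and 464.3, 464.5 and 485 after both. The groups did not overlap, and the order was LPS, IL-4+LPS, control and IL-4, with each step past the threshold. LPS raised the mean 129-fold without IL-4 (log2 difference 6.80 ± 0.21, adjusted p = 2.52e-09) and 327-fold after IL-4 (7.67 ± 0.21, adjusted p = 1.28e-09), which is 7.24 and 8.07 above the median row. The second fold rests on IL-4 replicate 1, without which it was 537-fold (7.97, adjusted p = 6.75e-11). IL-4 lowered Clec4e in resting cells by 1.61 ± 0.21 on this scale (adjusted p = 0.000192), while the ratio of the means was 4.27-fold, because adding 1 to the FPKM compresses low values. Without IL-4 replicate 1 the log2 difference was -1.92 (adjusted p = 9.52e-07) and the ratio of the means 7.004-fold, and in replicates 2 and 3 alone the log2 difference was -2.01 (adjusted p = 1.15e-06). After LPS the mean with IL-4 was 1.68-fold lower than without it, with a log2 difference of -0.75 ± 0.21 (adjusted p = 0.0197). That last call was lost with a pseudocount of 0.1 (adjusted p = 0.091) and without LPS replicate 1 (-0.73, adjusted p = 0.0515), LPS replicate 3 (-0.72, adjusted p = 0.0582) or IL-4+LPS replicate 2 (-0.74, adjusted p = 0.055). In replicates 2 and 3 alone it was -0.72 with an adjusted p of 8.67e-05.

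Clec4n encodes Dectin-2, a receptor for fungal mannans. It was at 98.3, 88.1 and 94.4 FPKM in control replicates 1 to 3, 18.4, 10.2 and 9.19 after IL-4, 98.4, 82.4 and 85.5 after LPS and 15.2, 7.58 and 10.3 after both. Both groups with IL-4 lay below both groups without it, and within each of these pairs the samples with and without LPS overlapped. IL-4 lowered the mean of Clec4n 7.43-fold in resting cells (log2 difference -2.86 ± 0.25, adjusted p = 1.42e-05) and 8.05-fold in LPS-exposed cells (-2.95 ± 0.25, adjusted p = 1.2e-05). For LPS against control the difference was -0.08, with a 95% interval of -0.64 to 0.48, and for IL-4+LPS against IL-4 it was -0.17, with an interval of -0.73 to 0.40. Relative to the median row these were 0.37 and 0.24, and both changed sign under median scaling (0.29 and 0.17, adjusted p = 0.332 and 0.59).

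The 250 bases before the annotated start are shown for 4 of the genes: Clec4d and Clec4e, adjacent genes whose responses to LPS differed in size, Clec12a, the member whose profile was closest to that of Clec4d, and Clec7a, which rose with IL-4. The sequences are from RefSeq (GRCm38.p6), read 5′ to 3′ on the strand of the gene. Capitals mark matches to any of 5 motifs searched on both strands: a STAT6-type palindrome TTCNNNNGAA, an AP-1 motif TGANTCA, a C/EBP motif TTGCNNAA, a PU.1 core GAGGAA and an NF-kB motif.
Clec4d, chr6:123261857-123262106, plus strand: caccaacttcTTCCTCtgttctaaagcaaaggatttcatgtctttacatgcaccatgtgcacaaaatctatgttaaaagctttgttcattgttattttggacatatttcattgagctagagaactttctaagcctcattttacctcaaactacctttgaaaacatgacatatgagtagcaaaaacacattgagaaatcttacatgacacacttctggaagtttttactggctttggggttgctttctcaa
Clec4e, chr6:123289872-123290121, minus strand: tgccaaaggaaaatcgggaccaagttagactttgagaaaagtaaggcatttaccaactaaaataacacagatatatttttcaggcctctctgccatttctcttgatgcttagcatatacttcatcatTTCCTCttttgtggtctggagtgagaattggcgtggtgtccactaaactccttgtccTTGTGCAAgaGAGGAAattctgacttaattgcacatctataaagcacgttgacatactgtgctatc
Clec12a, chr6:129349994-129350243, plus strand: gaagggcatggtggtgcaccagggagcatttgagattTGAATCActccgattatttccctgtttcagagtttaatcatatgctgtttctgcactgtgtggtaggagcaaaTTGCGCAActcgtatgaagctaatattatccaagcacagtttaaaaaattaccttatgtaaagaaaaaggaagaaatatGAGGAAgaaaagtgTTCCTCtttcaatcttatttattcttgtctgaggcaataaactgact
Clec7a, chr6:129472780-129473029, minus strand: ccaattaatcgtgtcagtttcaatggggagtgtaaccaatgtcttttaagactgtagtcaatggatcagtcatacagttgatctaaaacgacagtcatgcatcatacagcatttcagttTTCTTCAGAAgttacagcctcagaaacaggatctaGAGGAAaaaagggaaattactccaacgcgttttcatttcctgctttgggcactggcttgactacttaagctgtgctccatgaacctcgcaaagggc
An entry was found for 8 of the 9 members, and Clec4n had none. The STAT6-type palindrome was present upstream of 3 of these 8 genes (Clec7a, Clec5a and Clec4a1) and in 5.85% of all 32851 promoter windows of this length. In the window of Clec7a it covers bases 131 to 122 before the start. With IL-4 alone Clec7a was higher than in control, Clec4a1 was lower and Clec5a had no call. A link between the palindrome and the IL-4 differences was not tested. The PU.1 core was present in 6 of 8 windows (23.3% of all), the C/EBP motif in Clec4e and Clec12a (9.56%) and the AP-1 motif in Clec12a (6.75%). No window of the 8 held the NF-kB motif, which was in 7.25% of all. A match describes letters in this window, and the windows of Clec4a2 and Clec4a3 held none of the 5 motifs. The windows of Clec12a and Clec4a2 end before positions 129350244 and 123122690. GENCODE starts these genes further upstream, at 129342691 and 123106428, and the bases before those starts are not covered.

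Clec7a encodes Dectin-1, the receptor for fungal beta-glucans. It was at 167, 86.5 and 87.3 FPKM in control replicates 1 to 3, 569.6, 270.2 and 268 after IL-4, 71.4, 31.7 and 34.2 after LPS and 328, 154 and 165 after both. Replicate 1 was the highest sample in all 4 groups, at 0.93 to 1.09 above the mean of replicates 2 and 3 on the log2 scale. Only 28 of the 11191 rows (0.25%) had such an offset of more than 0.8 in all 4 groups, a limit set after the values were seen. The IL-4 samples did not overlap with control, nor the IL-4+LPS samples with LPS. IL-4 raised Clec7a 3.26-fold in resting cells (1.67 ± 0.43, adjusted p = 0.0123) and 4.71-fold in LPS-exposed cells (2.22 ± 0.43, adjusted p = 0.00298). The same differences in replicates 2 and 3 alone were 1.62 (adjusted p = 2.1e-06) and 2.24 (adjusted p = 9.66e-07).

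LPS lowered Clec7a by 1.32 ± 0.43 without IL-4 (adjusted p = 0.0172), and this was 0.88 below the median row. The call was lost under median scaling (-0.95, adjusted p = 0.0732), with a Tukey test per row (adjusted p = 0.102, over pairs of groups and not across rows) and without control replicate 1 (-1.01, adjusted p = 0.0703), LPS replicate 2 (-1.11, adjusted p = 0.0634) or LPS replicate 3 (-1.16, adjusted p = 0.0594). In replicates 2 and 3 alone it was -1.37 with an adjusted p of 7.56e-07. With the replicate number as a block in the fit of all samples the call was kept (-1.32 ± 0.05, adjusted p = 7.62e-08). For LPS after IL-4 the difference was -0.77 (95% interval -1.72 to 0.19, adjusted p = 0.132), or -0.36 relative to the median row. It passed the threshold in replicates 2 and 3 alone (-0.75, adjusted p = 1.39e-05), without IL-4+LPS replicate 1 (-1.11, adjusted p = 0.044) and with the block (-0.77, adjusted p = 1.62e-06). The level in IL-4+LPS was between those of IL-4 and control, and neither of these neighbouring steps passed the threshold (adjusted p = 0.132 and 0.0804).

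Clec5a encodes MDL-1, the receptor that pairs with DAP12. It was the least abundant of the 9 genes in control, at 2.31, 2.19 and 2.27 FPKM. The IL-4 samples were at 4.58, 3.11 and 3.50 FPKM, the LPS samples at 30.5, 13.7 and 14.5 and the IL-4+LPS samples at 27.6, 16.5 and 15.2. Both LPS groups lay above both groups without LPS, and the 2 LPS groups overlapped each other. LPS raised the mean 8.68-fold without IL-4 (2.57 ± 0.29, adjusted p = 1.48e-05) and 5.29-fold after IL-4 (2.10 ± 0.29, adjusted p = 7.69e-05), which is 3.01 and 2.50 above the median row. IL-4 gave no call in LPS-exposed cells (0.06, 95% interval -0.58 to 0.69, adjusted p = 0.916). In resting cells all 3 IL-4 samples were above all 3 control samples, but the difference of 0.53 ± 0.29 missed the threshold (adjusted p = 0.183). It passed in replicates 2 and 3 alone (0.41, adjusted p = 0.00347) and with only these groups in the fit (adjusted p = 0.0181).

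Among the inhibitory receptors, Clec12a encodes MICL, which recognises dead cells and uric acid crystals. It was at 192, 177 and 177 FPKM in control replicates 1 to 3, 57.4, 32.7 and 34.9 after IL-4, 205, 167 and 173 after LPS and 57.2, 51.6 and 48.6 after both. The pattern was that of Clec4n, with both IL-4 groups below both groups without IL-4 and no separation by LPS. IL-4 lowered the mean 4.37-fold in resting cells (-2.14 ± 0.18, adjusted p = 8.78e-06) and 3.46-fold in LPS-exposed cells (-1.77 ± 0.18, adjusted p = 3.66e-05). LPS against control differed by -0.01 (95% interval -0.40 to 0.39), or 0.44 relative to the median row. For LPS after IL-4 the difference was 0.37 ± 0.18 (adjusted p = 0.0837), or 0.78 relative to the median row, and it passed the threshold without IL-4 replicate 1 (0.62, adjusted p = 0.000462), in replicates 2 and 3 alone (0.56, adjusted p = 4.91e-05) and under median scaling (0.72, adjusted p = 0.00522).

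Clec4a2 encodes DCIR, an inhibitory receptor of macrophages and dendritic cells. It was at 79.5, 86.7 and 93.4 FPKM in control replicates 1 to 3, 118, 105 and 108 after IL-4, 64.6, 63.8 and 66.4 after LPS and 51.3, 51.8 and 55.1 after both. No 2 groups overlapped, and the order was IL-4, control, LPS and IL-4+LPS, with each step past the threshold. IL-4 raised Clec4a2 in resting cells (0.35 ± 0.07, adjusted p = 0.00337) and lowered it in LPS-exposed cells (-0.30 ± 0.07, adjusted p = 0.00998). It fell by 0.41 ± 0.07 with LPS alone (adjusted p = 0.000396), which is 0.04 above the median row, and the call was lost under median scaling (-0.04, adjusted p = 0.643). After IL-4 the LPS difference was -1.05 ± 0.07 (adjusted p = 4.92e-07), or -0.65 relative to the median row. Of the 50-base words of the longest Clec4a2 transcript, 8.76% also occurred in another gene, chiefly its neighbour Clec4a4, against 0.812% or less for the other 8 members, so its level is less certain.

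Clec4a1 and Clec4a3 encode DCIR relatives and are adjacent at one end of the run, 17895 bases apart. Clec4a1 was at 238, 267 and 261 FPKM in control replicates 1 to 3, 148, 179 and 185 after IL-4, 421, 357 and 387 after LPS and 139, 145 and 145 after both. Clec4a3 was at 123, 115 and 117 FPKM in control, 248, 219 and 236 after IL-4, 77.3, 68.9 and 73.7 after LPS and 112, 110.3 and 107 after both. The order of Clec4a1 was LPS, control, IL-4 and IL-4+LPS, and that of Clec4a3 was IL-4, control, IL-4+LPS and LPS, with every step past the threshold but that of Clec4a3 from control to IL-4+LPS (adjusted p = 0.163). IL-4 lowered Clec4a1 by 0.59 ± 0.09 in resting cells (adjusted p = 0.00083) and by 1.43 ± 0.09 in LPS-exposed cells (adjusted p = 1.98e-06). It raised Clec4a3 by 0.98 ± 0.07 (adjusted p = 2.07e-06) and 0.58 ± 0.07 (adjusted p = 8.38e-05). LPS alone raised Clec4a1 by 0.60 ± 0.09 (adjusted p = 0.000171), or 1.04 above the median row, and Clec4a3 fell by 0.68 ± 0.07 (adjusted p = 4.42e-06), or 0.24 below it. After IL-4 the LPS difference of Clec4a3 was -1.08 ± 0.07 (adjusted p = 2.11e-07), or -0.68 relative to the median row. That of Clec4a1 was -0.24 ± 0.09 (adjusted p = 0.0365), which is 0.16 above the median row, and it turned to 0.12 under median scaling (adjusted p = 0.272). The Clec4a1 call was also lost with only the compared groups (adjusted p = 0.0644), with the same Tukey test (adjusted p = 0.12) and without any 1 of IL-4 replicate 2, IL-4 replicate 3 or the 3 IL-4+LPS samples (-0.25 to -0.18, adjusted p = 0.0658 to 0.138). It was kept in replicates 2 and 3 alone (-0.33, adjusted p = 0.000592).

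The LPS response with IL-4 minus that without it (the interaction) passed the threshold with a negative value for 3 members and with a positive value for none. Of all rows, 4.63% and 4.58% did so. The 3 genes were Clec4a1 (-0.85 ± 0.13, adjusted p = 0.00309), Clec4a2 (-0.65 ± 0.10, adjusted p = 0.00297) and Clec4a3 (-0.40 ± 0.09, adjusted p = 0.0227), all of the DCIR group. The non-member Clec4a4, with which Clec4a2 shares some sequence, also passed with a negative value (-0.58 ± 0.13, adjusted p = 0.0205). Clec4a3 lost the call under quantile normalization (-0.36, adjusted p = 0.0693) and when any 1 of control replicates 2 and 3, IL-4 replicate 3, LPS replicate 3 and IL-4+LPS replicate 3 was left out (-0.40 to -0.38, adjusted p = 0.0594 to 0.0635). Clec4e had the largest positive value, 0.87 ± 0.29 (95% interval 0.22 to 1.52, adjusted p = 0.0956), and it was the 1 member with a positive value at an unadjusted p under 0.05 in limma. It passed without IL-4 replicate 1 (1.18, adjusted p = 0.000783), the sample in which Clec4e was 2.57 FPKM against 0.869 and 0.887, and in replicates 2 and 3 alone (1.30, adjusted p = 0.000133). Clec12a (0.37, adjusted p = 0.421) passed in the same 2 settings, with 0.62 (adjusted p = 0.0231) and 0.61 (adjusted p = 0.00158). Clec7a passed only in replicates 2 and 3 alone among the fits without a block (0.62, adjusted p = 0.00175). For Clec4d and Clec4n the interaction was -0.08 and -0.09, with 95% intervals of -0.49 to 0.34 and -0.88 to 0.71.

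**Figure D3:**
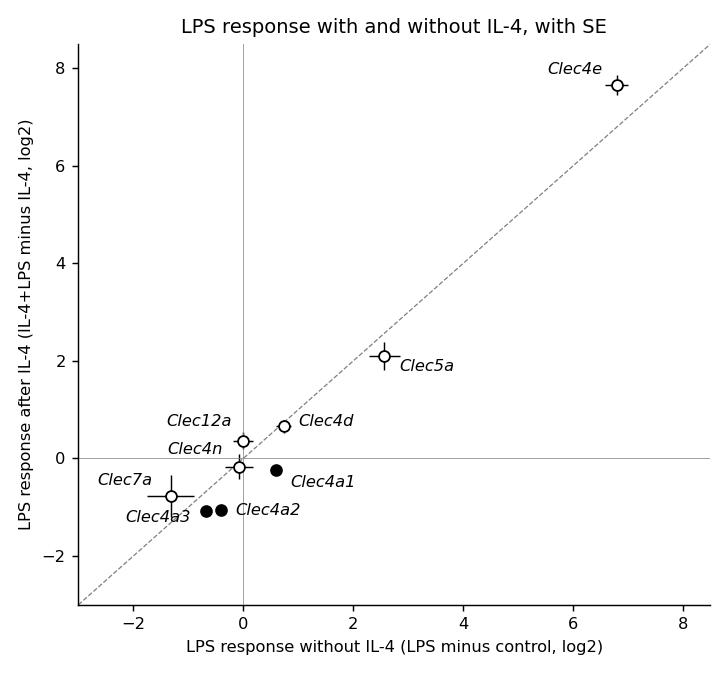
LPS response after IL-4 (vertical axis, IL-4+LPS minus IL-4) against the LPS response without it (horizontal axis, LPS minus control), both as log2 differences of log2(FPKM + 1) with SE, filled where the interaction passed the threshold. The dashed line marks equal responses: the 3 filled genes, Clec4a1, Clec4a2 and Clec4a3, lie below it by 0.85, 0.65 and 0.40.

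Ratios of 2 receptors within a sample, chosen after the levels were known and given without a test, put these differences on one scale, since FPKM is per length of transcript. Mincle and MCL assemble together, and the ratio of Clec4e to Clec4d was 0.00661, 0.00995 and 0.00948 in control replicates 1 to 3, 0.00818, 0.00392 and 0.00396 after IL-4, 0.651, 0.653 and 0.682 after LPS and 1.06, 1.21 and 1.32 after both. Clec4e therefore exceeded Clec4d only in the 3 IL-4+LPS samples, where both genes were lower than with LPS alone. The ratio of Clec7a to Clec4n was 1.69, 0.981 and 0.925 in control, 31, 26.4 and 29.2 after IL-4, 0.726, 0.384 and 0.40 after LPS and 21.6, 20.3 and 16 after both. Dectin-1 and Dectin-2 transcripts were thus near parity in control replicates 2 and 3 but not in replicate 1, and Dectin-1 exceeded Dectin-2 in all 6 samples with IL-4. The ratio of Clec4a3 to Clec4a1 was 0.43 to 0.519 in control, 1.22 to 1.68 after IL-4, 0.184 to 0.193 after LPS and 0.741 to 0.803 after both. Summed over the 9 genes, the level was 1576 ± 114 FPKM in control, 1197 ± 245 after IL-4, 2849 ± 179 after LPS and 1472 ± 138 after both (mean ± SD, n = 3). Clec4d and Clec4e made up most of the sum after LPS (1196 and 791 FPKM on average, against 718 and 6.15 in control). The sum therefore does not describe each of the other members.

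**Figure D4:**
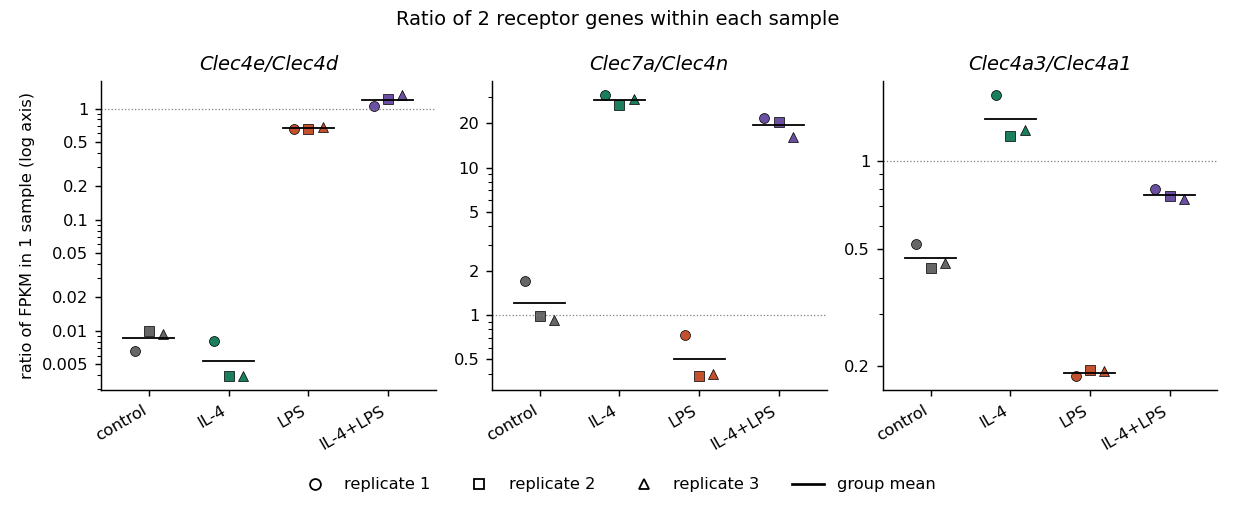
Ratio of the FPKM of 2 receptor genes within each of the 12 samples (log axis, with its own range in each panel), by group, with circles, squares and triangles for replicates 1, 2 and 3, a bar for the group mean and a dotted line at equal levels. The ratio of Clec4e to Clec4d passed 1 only in IL-4+LPS (1.06 to 1.32), and that of Clec7a to Clec4n was 16 to 31 in the 6 samples that received IL-4.

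The adaptors, kinases and scaffolds that serve these receptors were followed with a list of 22 genes, of which 21 were found and all 21 were expressed. After IL-4, 12 of the 21 were lower and 2 higher, against 21.0% and 16.0% of all rows (median log2 difference -0.39, against -0.05 for all rows, with 11 lower and 2 higher under median scaling), and in LPS-exposed cells 7 were lower and 2 higher, against 15.8% and 15.0%. LPS raised 11 and lowered 8 without IL-4, against 16.9% and 57.7% of all rows (10 and 8 under quantile normalization, 12 and 7 under median scaling). After IL-4 it raised 12 and lowered 8, against 15.0% and 57.9% (9 and 7 under quantile normalization, 12 and 5 under median scaling). Fcer1g, the FcRγ adaptor of Mincle, MCL and Dectin-2, was at 1500 ± 14.4 FPKM in control, 1038 ± 29.4 after IL-4, 1696 ± 53.0 after LPS and 1259 ± 112 after both (n = 3). It fell by 0.53 with IL-4 (adjusted p = 0.000223) and by 0.43 with IL-4 in LPS-exposed cells (adjusted p = 0.000921), where the differences were -1.52 and -1.59 for Clec4d and -2.86 and -2.95 for Clec4n. Tyrobp (DAP12) was at 2857 ± 185 FPKM in control, 2448 ± 95.8 after IL-4, 1929 ± 38.1 after LPS and 1969 ± 140 after both. With LPS alone Tyrobp fell by 0.56 (adjusted p = 4.72e-05), or 0.12 below the median row, where Clec5a, whose product pairs with it, rose.

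Syk, the shared kinase, was at 105 ± 5.83 FPKM in control, 79.7 ± 9.04 after IL-4, 282 ± 7.41 after LPS and 247 ± 16.6 after both. LPS raised it by 1.43 without IL-4 (adjusted p = 2.09e-07) and by 1.62 after IL-4 (adjusted p = 9.92e-08). Card9, the scaffold downstream of Syk, fell by 1.02 (adjusted p = 1.7e-05) and by 1.07 (adjusted p = 1.38e-05) in the same comparisons, from 18.9 ± 1.63 to 8.87 ± 1.25 FPKM without IL-4, and the differences relative to the median row were -0.57 and -0.66. Malt1, the protease that acts with Card9, rose with LPS by 3.72 (adjusted p = 5.05e-09), from 10 ± 1.46 to 144 ± 15.9 FPKM. The Src family kinases, which phosphorylate the receptor motifs, included Fgr and Lyn, which rose with LPS by 2.18 and 1.12 (adjusted p = 0.000138 and 2.74e-07) and were below LPS alone when IL-4 came first, by 1.63 and 1.26 (adjusted p = 0.00389 and 8.34e-07). Src itself rose by 4.43 with LPS (adjusted p = 4.44e-07). Inpp5d, the lipid phosphatase SHIP that acts with inhibitory receptors, fell by 3.07 with LPS (adjusted p = 8.88e-07), from 79.3 ± 2.15 to 8.73 ± 2.27 FPKM. Among the other genes of the list, Trim62 fell by 1.16 (adjusted p = 4.67e-07) and Vav2 by 1.59 (adjusted p = 5.04e-06) with LPS (-0.72 and -1.14 relative to the median row), Vav3 rose by 1.17 (adjusted p = 3.09e-05), Vav1 was 1.42 lower after both stimuli than after LPS alone (adjusted p = 1.53e-05), and Prkcd rose by 1.10 with IL-4 (adjusted p = 1.16e-05).

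**Figure D5:**
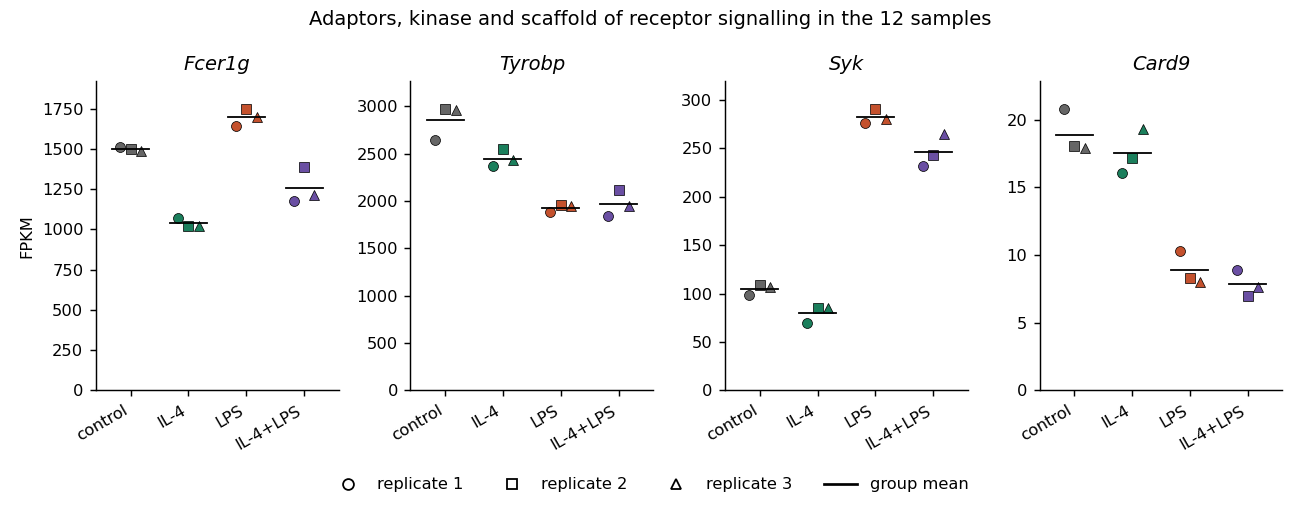
FPKM (linear axis from 0, with its own range in each panel) of Fcer1g, Tyrobp, Syk and Card9 in the 12 samples, by group, with circles, squares and triangles for replicates 1, 2 and 3 and a bar for the group mean. Fcer1g had its lowest mean in IL-4 (1038 FPKM), Syk its highest in LPS (282 FPKM), and Card9 its lowest in IL-4+LPS (7.83 FPKM).

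A list of 36 other lectin receptors was followed in the same way. In all, 35 were found and 11 were expressed, and after IL-4 6 of the 11 were higher and 2 lower, against 16.0% and 21.0% of all rows, while in LPS-exposed cells 4 were higher and 2 lower, against 15.0% and 15.8%. LPS raised 4 and lowered 7 without IL-4, against 16.9% and 57.7% of all rows (3 and 3 under quantile normalization, 4 and 5 under median scaling). After IL-4 it raised 4 and lowered 6, against 15.0% and 57.9% (4 and 6, and 4 and 4). Cd69 and Olr1 were under 1 FPKM in every sample without LPS, and Clec2i in every sample with it. These genes passed the expression filter only through the groups where they were high, so the LPS counts of this list are partly fixed by the filter. Mgl2, a galactose-type lectin of alternatively polarized macrophages, rose with IL-4 from 4.41 ± 0.774 to 129 ± 8.41 FPKM, by 4.60 on the log2 scale (adjusted p = 1.23e-09), and its relative Clec10a rose by 0.89 (adjusted p = 0.00586). Cd302 fell by 1.67 with IL-4 (adjusted p = 2.85e-07), from 65.0 ± 1.92 to 19.7 ± 0.606 FPKM. Cd69, an early activation marker, rose with LPS by 6.41 (adjusted p = 3.42e-08), from 0.267 ± 0.226 to 112 ± 48.1 FPKM, and Olr1, a scavenger receptor for oxidised lipoprotein, by 2.76 (adjusted p = 6.67e-08). Clec2d rose by 1.00 (adjusted p = 0.00225).

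Inside the run of 6, 2 non-members were expressed, Clec4a4 and Clec4b1. With IL-4 and with LPS alone, their differences had the signs of those of Clec4a3 and Clec4a2. Clec4a4 was at 10.01 to 23.9 FPKM over the 12 samples and rose by 0.36 with IL-4 (adjusted p = 0.0115), and Clec4b1 was at 21.1 to 73.8 FPKM and rose by 0.64 (adjusted p = 0.0111). With LPS alone they fell by 0.45 and 0.81 (adjusted p = 0.00107 and 0.00098), and Clec4a4 lost that call under median scaling (-0.11, adjusted p = 0.363). Read along the chromosome, the differences for IL-4 against control were -0.59 for Clec4a1, 0.98 for Clec4a3, 0.36 for Clec4a4, 0.64 for Clec4b1, 0.35 for Clec4a2, -2.86 for Clec4n, -1.52 for Clec4d and -1.61 for Clec4e. The last 3 of these genes thus fell, while the 4 before them rose. The row of Clec4b2, which lies between Clec4a2 and Clec4n, did not reach 1 FPKM in any sample, and neither did Clec12b, Clec1b, Clec9a and Clec1a between Clec12a and Clec7a. The ends of Clec4d and Clec4e are 6520 bases apart.

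The rows closest in profile to each member were found by the root mean square difference of centred log2(FPKM + 1) over the 12 samples. Clec4d was closest to Aoah, the hydrolase that inactivates LPS (0.148), and Tifa (0.186), and Clec4e to the interferon-induced genes Ifit1 (0.42) and Mx1 (0.428), both of which were low in control (4.33 and 3.11 FPKM) and high in LPS (638 and 365 FPKM). Clec7a was closest to Atp6v0d2, a subunit of the proton pump (0.295), which was at 163 FPKM in control and 524 in IL-4, and to Ankrd55 (0.43). Clec4n was closest to Emr4 (0.344) and Ctla2b (0.349), Clec12a to Limd2 (0.211) and Sash1 (0.224), and Clec5a to Hspa1b (0.219) and Gbp10 (0.268). For the DCIR group these were Plekhg2 (0.184) and Sipa1l2 (0.195) for Clec4a1, Mgat2 (0.091) and Smcr7l (0.095) for Clec4a2, and 1300002K09Rik (0.123) and Ap1s3 (0.129) for Clec4a3. Several of these rows were low, where adding 1 to the FPKM compresses differences, so a small distance does not mean an equal fold. Emr4 was at 6.79 FPKM in control and 0.112 in IL-4, and Gbp10 at 0.161 in control and 5.27 in LPS. In control 1300002K09Rik and Ap1s3 were at 1.58 and 1.31 FPKM. Among the members themselves the closest pair was Clec4d and Clec12a (0.357), followed by Clec4a2 and Clec4a3 (0.396), while Clec4e was 2.60 from its nearest member, Clec5a.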

How the data were processed

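Per the labels, 12 libraries were sequenced, 3 per group, and per the submitters' processing notes the authors used TopHat2 (2.0.7), Cufflinks (2.0.2) and the mm10 build. The gene annotation is not given in the sources used here. The deposited tables held FPKM values per row and sample, scaled to the mapped fragments of each sample, with no fragment counts, so relative depth was read from the steps of low values. The kit did not mark strand. The study describes 3 individual animals from 2 experiments, fewer than the 12 libraries. Neither it nor the labels tie a sample to an animal or experiment.

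Rows of at least 1 FPKM in at least 1 sample were kept, values were transformed to log2(FPKM + 1), and limma (3.58.1, R 4.3.3, eBayes with trend) was run on a model of group means that held the 12 samples. P-values were adjusted over all 11191 rows, and members were read from that fit. The procedure was tested on simulated data. Promoters came from RefSeq and positions of transcripts from GENCODE vM21. The members, the gene lists and the rules for named genes (every member, listed genes past the threshold with a log2 difference of at least 1 in a simple comparison together with Fcer1g, Tyrobp, Syk and Card9, the 2 rows closest in profile, and expressed rows between members) were chosen with earlier results of these data known. The values of 1 listed gene that met the rule are not reported here. Alternatives were another pseudocount, other filters, quantile normalization, median scaling, no trend, only the compared groups, a replicate block, a Tukey test per row, replicates 2 and 3 only and each sample left out in turn. Figures were drawn with matplotlib 3.10.9.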

Additional observations from a re-analysis of the deposited data

Results flagged for a closer look

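The LPS response of 3 members differed between cells with and without IL-4 pretreatment by the interaction term. The LPS response after IL-4 minus that without it was -0.85 for Clec4a1, -0.65 for Clec4a2 and -0.40 for Clec4a3 on the log2 scale (adjusted p = 0.00309, 0.00297 and 0.0227 with limma over 11191 rows, 3 samples per group). For Clec4a1 the response was 0.60 without IL-4 and -0.24 with it (0.12 under median scaling), for Clec4a2 -0.41 and -1.05, and for Clec4a3 -0.68 and -1.08. The call of Clec4a3 was lost under quantile normalization (adjusted p = 0.0693) and in 5 of the 12 fits with 1 sample left out.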

How the results depend on the processing

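The counts of members that differed in each comparison stayed within 1.5 times the values given, except for 2, and the order of the 4 group levels, a check added after the data were seen, held for 7 to 9 of the 9 members when 1 sample was left out but for 5 of 9 under median scaling. A fit with only the compared groups and the Tukey test were not run for the interaction. Under median scaling 1 member was lower in LPS than in control in place of 3, and Clec4a1 in IL-4+LPS against IL-4 changed sign (0.12). The number of members with a positive interaction past the threshold was 0 and became 3 in replicates 2 and 3 only, and 0 to 2 when 1 sample was left out, with the 2 found without IL-4 replicate 1. With the replicate number as a block it was 1, Clec7a (0.55, adjusted p = 0.00128). The block also gave calls for Clec5a in IL-4 against control (adjusted p = 0.043) and for Clec7a and Clec12a in IL-4+LPS against IL-4 (adjusted p = 1.62e-06 and 0.0195), and left every other call of a member as it was. Samples that share a number were not treated as paired in the main fit, and the sources used here do not say whether they share an animal. Of 18 such pairs, 11 had deviations correlated above 0.1 across rows (r = 0.002 to 0.386, mean 0.124). In all, 7 of 12 samples correlated best with their own number, so shared structure by number is not excluded. Of 972 member values under alternatives, 916 kept their direction and side of the threshold, 23 lost and 16 gained a call, 16 without a call changed sign and 1 call reversed. Over all rows, the share of calls that were higher rose from 22.6% to 40.2% (quantile normalization) and 40% (median scaling) for LPS against control, and from 20.6% to 37.1% and 39.3% for IL-4+LPS against IL-4. Higher calls in LPS against control went from 1887 to 2903 and 2966, lower calls in IL-4+LPS against IL-4 from 6474 to 4173 and 4057, and higher calls there to 2629 under median scaling from 1682. Lower calls in IL-4+LPS against LPS went from 1771 to 2667 with the block and 2881 in replicates 2 and 3 only. Positive and negative interactions went from 512 and 518 to 1145 and 1095 with the block, 1459 and 1393 in replicates 2 and 3 only, 324 and 332 without IL-4 replicate 3, and 307 and 333 without LPS replicate 3. Clec4e was near the floor in IL-4, where replicates 2 and 3 were under 1 FPKM (relative depth 1.78 and 1.75). Replicate 1 of IL-4, at 2.57 FPKM, had a relative depth of 0.994. The part of depth in these values was not tested. Ratios of group means without 1 sample and the macrophage sum without Lyz2 were added after the data were seen.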
